A study of Mus musculus with 12 samples.

Results

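Complement genes of skeletal muscle fibroblasts were followed across 3 treatments, as 9 genes picked by symbol: C1ra, C1s1, C3, C4b, Cfb, Cfd, Serping1, Cd55 and C3ar1. All 9 were listed in each of the 3 deposited tables, among 25133 genes that the tables share. The cells were primary fibroblasts from hindlimb muscle of wild-type C57 BL/10 mice at postnatal day 3. They received aldosterone at 1 µM, spironolactone at 1 µM or the DMSO vehicle for 48 hours, in medium whose serum had been stripped of steroids, and each treatment had 4 poly(A) RNA libraries. Aldosterone activates the mineralocorticoid receptor (MR) and spironolactone blocks it, and no library combined them, so the comparisons are between treatments and do not assign a change to the receptor. The cells came from 2 mice, with 2 replicate plates for each mouse and treatment. The titles give each library a sample number and a biological replicate number and do not say which is the mouse. The p-values below therefore measure the spread between plates of a few animals.

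Complement is a set of plasma and cell surface proteins that mark targets for removal. In the classical pathway C1q holds the proteases C1r and C1s, of which C1s cuts C4 and C2. In the alternative pathway factor D cuts factor B bound to C3. Both routes meet at the cleavage of C3, whose fragments coat surfaces and signal through receptors such as the C3a receptor. Host cells are spared by regulators, among them the C1 inhibitor, which blocks C1r and C1s, and CD55, which takes the C3-cutting enzymes apart at the cell surface. Liver makes most of the circulating proteins, and fibroblasts are a known local source of several of them.

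Levels are given in RPM, the reads of a gene per 1000000 reads on genes in its library, and levels of different genes are compared per kilobase of gene length (RPKM). Fold changes come from the deposited normalized counts of each pair of treatments, fitted by limma on log2(normalized count + 1), and a gene was called where its p, adjusted by Benjamini and Hochberg's method over all genes of the table, was at most 0.05. Reads on genes ran from 19136923 to 30219185 per library. Fkbp5, an established target of steroid receptors, was 4.26 log2 units higher with aldosterone than with vehicle (limma adjusted p = 4.02e-15). The fibroblast markers Pdgfra, Pdgfrb, Col1a1, Col1a2, Col3a1, Dcn, Lum and Thy1 were all read, and their summed level was 43462 to 48243 RPM with vehicle and 34746 to 39014 RPM with aldosterone. Of these 8, Pdgfra was called higher with aldosterone (log2 fold change 0.91, limma adjusted p = 2.93e-08) and Col3a1 lower (-0.43, limma adjusted p = 4.42e-04). With the sample number as a block 7 were called lower, against 8.02% of all genes. The median log2 fold change of the 8 was -0.26. Of 12 macrophage markers, C1qa and C1qb had no row in the tables, and Ptprc, Adgre1, C1qc and Tyrobp had 3 reads or fewer in every library. Lyz2, Csf1r, Cd14, Mrc1 and Cd68 were read in every library, Lyz2 at 113 to 240 reads, and Cd14 was called higher with aldosterone than with vehicle (log2 fold change 0.69, limma adjusted p = 0.0130). The summed level of the list ran from 12.6 to 15.7 RPM over all libraries. Of 6 endothelial markers 1, Tie1, had 3 reads or fewer throughout, and the list summed to 20.4 to 22.5 RPM with vehicle and 28.4 to 30.5 RPM with aldosterone. Most of that sum was Tek, at a mean of 18.8 and 21.6 RPM, and Kdr, at 1.91 and 6.87 RPM. The list did not move as 1, with positive fold changes for 4 of the 6. Pecam1 averaged 0.278 RPM with vehicle and 0.117 RPM with aldosterone. Of 6 myogenic markers Pax7, Myf5 and Myog had 3 reads or fewer in every library, and the list summed to 22.1 to 31.9 RPM with vehicle and 8.57 to 17.8 RPM with aldosterone. Most of that sum was Acta1, which averaged 22.8 RPM with vehicle and 9.68 RPM with aldosterone. Des averaged 4.17 and 3.07 RPM, and Myod1 had at most 7 reads in any library. The part of such cells in the results was not tested.

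In vehicle-treated cells the 9 genes covered a wide range of levels. C1ra, encoding the protease C1r, was highest at 30.9 ± 4.87 RPKM (SD, n = 4), above 94.3% of the shared genes. C1s1, for its partner protease, stood at 16.9 ± 1.79 RPKM, Cd55 at 15.4 ± 0.291 RPKM and Serping1, which encodes the C1 inhibitor, at 13.9 ± 1.04 RPKM. The libraries of C1s1 overlapped those of Cd55, and those of Cd55 overlapped those of Serping1, so the order of these neighbors lay within their spread. C4b followed at 4.99 ± 0.408 RPKM and C3 at 2.90 ± 0.457 RPKM, the latter above 64.0% of the shared genes. Cfd, encoding factor D, reached 1.24 ± 0.645 RPKM, and Cfb, encoding factor B, 0.0957 ± 0.0495 RPKM. C3ar1, the receptor for C3a, had 2 reads in 1 vehicle library and none in the other 3, and at most 3 reads in any library of the series. A count of 0 allows up to 3 reads, so no fold is given for this receptor. C1s1, C1ra, Serping1 and Cd55 were thus the abundant members, while Cfd and Cfb, of the alternative pathway, were sparse.

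The deposited tables place C3 at chr17:57510970-57535136 on the minus strand, C4b at chr17:34947354-34962856 and Cfb at chr17:35075350-35081494. C1ra lies at chr6:124489364-124500402 and C1s1 at chr6:124507304-124519318 on the opposite strand, next to each other. Serping1 is listed at chr2:84595731-84605788, Cd55 at chr1:130366764-130390481, Cfd at chr10:79726687-79728489 and C3ar1 at chr6:122824097-122833120. These are whole-gene spans of protein-coding genes, for which the submitters' notes name the build mm39. Promoter sequences were taken from RefSeq on GRCm38.p6, another build, and were found for 6 of 9 members: C1ra, C1s1, C3, Cfd, Cd55 and C3ar1. The 250 bases before the start are shown for C3 and Cd55, the members with entries that were called higher and lower with aldosterone, and for C1ra, the most abundant member. Capitals mark matches to a C/EBP motif (TTGCNNAA on either strand).

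C3, chr17:57228137-57228386, minus strand: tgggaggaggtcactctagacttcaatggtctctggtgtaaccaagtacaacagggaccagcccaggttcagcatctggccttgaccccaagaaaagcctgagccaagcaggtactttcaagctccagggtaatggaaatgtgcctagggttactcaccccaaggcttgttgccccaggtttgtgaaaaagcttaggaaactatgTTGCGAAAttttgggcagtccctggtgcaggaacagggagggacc
Cd55, chr1:130462745-130462994, minus strand: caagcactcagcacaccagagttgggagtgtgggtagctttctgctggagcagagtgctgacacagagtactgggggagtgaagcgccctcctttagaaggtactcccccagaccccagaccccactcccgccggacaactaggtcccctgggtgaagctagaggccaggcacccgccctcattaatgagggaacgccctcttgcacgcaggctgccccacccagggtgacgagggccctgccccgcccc
C1ra, chr6:124512371-124512620, plus strand: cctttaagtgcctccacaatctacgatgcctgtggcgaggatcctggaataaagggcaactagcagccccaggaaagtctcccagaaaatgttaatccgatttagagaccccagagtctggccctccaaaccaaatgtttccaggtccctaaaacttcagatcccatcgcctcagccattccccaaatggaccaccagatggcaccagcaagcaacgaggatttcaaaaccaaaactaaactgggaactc

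The C3 window held 1 C/EBP match, TTGCGAAA, starting 45 bases before the start, and C1s1 held 1, TTAGGCAA, starting 242 bases before it. The other 4 windows held none, and 9.56% of 32851 promoter windows of the same length hold such a match. A GAS motif (TTCNNNGAA) was in none of the 6 windows, against 7.02% of all. A short steroid receptor motif (AGAACA on either strand) was in 1 of 6, that of C1s1, against 16.1% of all. These letters describe the windows, and binding was not measured.

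Aldosterone raised C3, C4b and Serping1 and lowered Cd55. At an adjusted p of at most 0.05, 3 of 9 members were called higher against 5.68% of the 27319 genes tested, and 1 of 9 was called lower against 4.74%. The members were chosen with earlier results of these data known, so their share is no test of the pathway. The 27319 genes also include many with few reads. Among the 15416 genes kept by the read filter of edgeR, that program called 1637 higher and 1418 lower. Calls that also passed a log2 fold change of at least 1 were made for C3 and C4b, 2 of 9, against 1.40% of all genes in that direction. The median log2 fold change was 0.39 over the 9 members and -0.01 over all genes. For these 3 members the lowest aldosterone library exceeded the highest vehicle library, a pattern seen in 7.55% of all genes, and for Cd55 the order was the opposite, as for 6.90% of all genes.

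C3 is the protein on which all complement pathways meet. Its vehicle libraries held 13.1, 12.9, 15.9 and 17.7 RPM and its aldosterone libraries 36.8, 31.8, 57.4 and 59.5 RPM. The order is sample number 1 and then 2, with the biological replicates in order within each. Every aldosterone library lay above every vehicle library. Within each treatment both libraries of sample number 2 lay above both of sample number 1. The mean normalized count rose from 351 ± 51.3 to 1121 ± 320 (SD, n = 4 each). The fitted change was 3.11-fold, with a 95% interval from 2.47 to 3.93 (log2 fold change 1.64, SE 0.159, limma adjusted p = 2.30e-06).

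C4b encodes C4, a component that C1s cuts. It stood at 25.6, 27.6, 29.8 and 30.8 RPM with vehicle and at 51.6, 53.5, 68.4 and 63.5 RPM with aldosterone. The groups were well apart, with the lowest treated library above the highest control. The fold change was 2.13, with a 95% interval from 1.89 to 2.41 (log2 fold change 1.09, SE 0.0816, limma adjusted p = 1.06e-07). C4a, its neighbor and copy, shares 35.2% of the 50-base windows of the C4b transcript in the mm9 annotation, and had 6 to 24 reads per library against 548 to 1918 for C4b. How the counting split reads between such copies is not known, so the C4b values may contain reads of both.

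Serping1 was at 35.6, 31.9, 31.9 and 29.8 RPM with vehicle and at 45.3, 47.5, 50.3 and 50.1 RPM with aldosterone. The C1 inhibitor it encodes is secreted and inactivates C1r and C1s. All treated libraries lay above the controls, by a smaller margin than for C3 or C4b, at 1.54-fold with a 95% interval from 1.39 to 1.71 (log2 fold change 0.62, SE 0.0691, limma adjusted p = 1.07e-05).

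Cd55 moved the other way. Vehicle libraries held 74.8, 74.3, 77.0 and 73.7 RPM and aldosterone libraries 35.0, 41.3, 43.5 and 44.6 RPM. The highest treated library lay far below the lowest control. The log2 fold change was -0.83 (SE 0.0674, limma adjusted p = 2.94e-07), so that the vehicle level was 1.78 times that of aldosterone. In RPKM the ratio of C3 to Cd55 was 0.188 ± 0.0300 in vehicle cells and 1.06 ± 0.251 in aldosterone cells (SD, n = 4 each). At the RNA level C3 was thus well below Cd55 in vehicle cells and similar to it after aldosterone. These are the members that rose and fell most, so the shift of the ratio restates their fold changes. Cd55 is also not the only regulator. Among 16 listed complement regulators with a row it was the 1 called lower, and 3 were called higher. Cd55b, the paralog of Cd55, had at most 2 reads in any library, and the longest Cd55 transcript shares 13.3% of its 50-base windows with it. For C3, C4b, Serping1 and Cd55 alike, the exact two-sided permutation test over libraries gave p = 0.0286, the smallest that 4 against 4 can give. That test shuffled libraries without regard to the sample number.

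**Figure D1:**
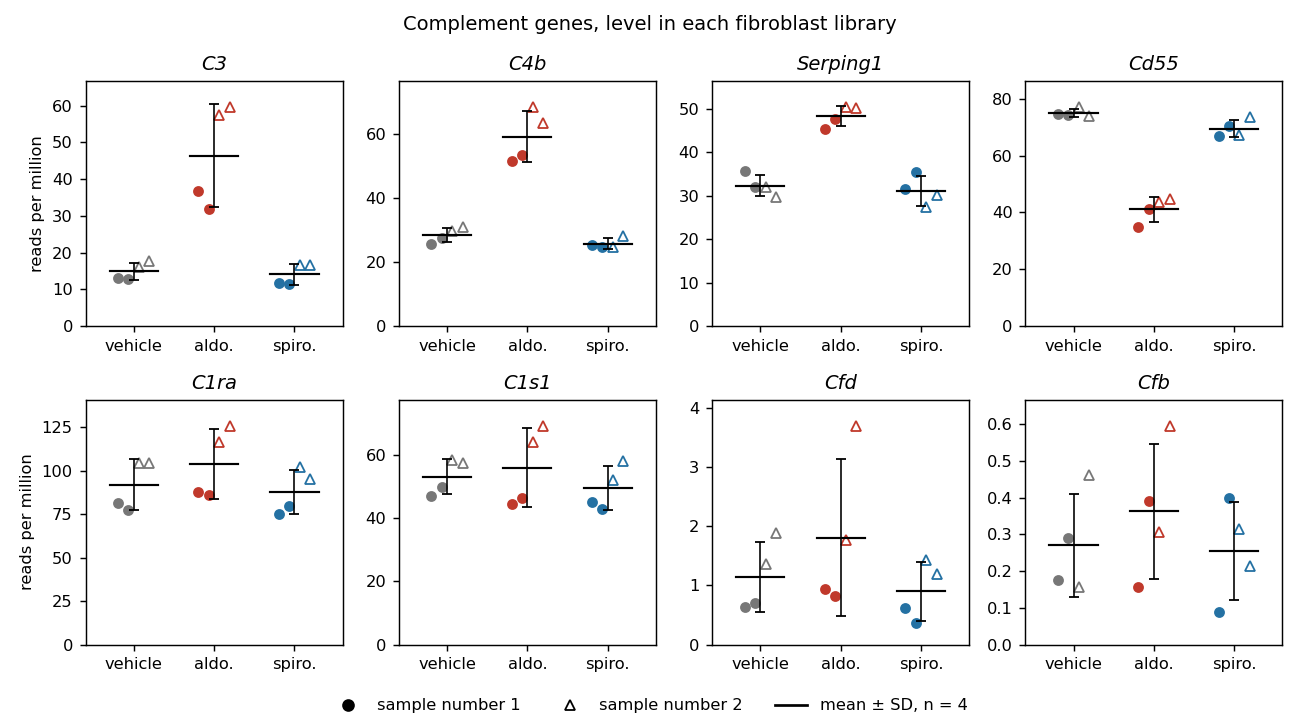
RPM (vertical axis, from 0, a scale for each gene) of 8 complement genes in the 12 libraries, by treatment (aldo., aldosterone; spiro., spironolactone), with circles for sample number 1, triangles for sample number 2, and lines and bars for the mean ± SD (n = 4). Aldosterone libraries stand above the others for C3, C4b and Serping1 and below them for Cd55. For C3, C1ra, C1s1 and Cfd the triangles lie above the circles in each treatment.

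C1ra and C1s1, the proteases that start the classical pathway, were not called in the same test. C1ra was at 81.6, 77.6, 104 and 105 RPM with vehicle and at 87.7, 86.1, 116 and 126 RPM with aldosterone. The groups overlapped, with both libraries of sample number 2 above both of number 1 in each group, and the log2 fold change was 0.21 (SE 0.113, limma adjusted p = 0.320). With the sample number as a block in the fit, the same difference was called (SE 0.0452, limma adjusted p = 7.47e-04). That fit called 4 members higher, against 8.68% of all genes, and 1 lower, against 8.02%. C1s1 was at 46.8, 49.8, 58.2 and 57.2 RPM with vehicle and at 44.3, 46.3, 63.9 and 69.1 RPM with aldosterone. Its log2 fold change of 0.10 (95% interval -0.14 to 0.34) was not called without the block (limma adjusted p = 0.689) or with it (limma adjusted p = 0.301). The RPKM of C1ra was 1.82 ± 0.127 times that of C1s1 in vehicle cells, 1.96 ± 0.0782 times in aldosterone cells and 1.87 ± 0.161 times in spironolactone cells (SD, n = 4 each). The ranges overlapped between treatments, from 1.64 to 1.92 with vehicle, from 1.91 to 2.08 with aldosterone and from 1.72 to 2.06 with spironolactone.

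The copies of these proteases were sparse. C1rb had 4 to 17 reads in the vehicle libraries and 12, 9, 385 and 3 reads in the aldosterone libraries. The high value came from the first biological replicate of sample number 2. The longest C1ra transcript shares 47.5% of its 50-base windows with C1rb. The C1ra level of that library, 116 RPM, lay beside the 126 RPM of the other aldosterone library of sample number 2. C1s2 had 3 to 14 reads per library and shares 24.3% of the windows of C1s1. None of the 4 paralogs was called.

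Cfd and Cfb, of the alternative pathway, had few reads and wide intervals. Cfd was at 0.629, 0.702, 1.36 and 1.89 RPM with vehicle and at 0.940, 0.820, 1.77 and 3.71 RPM with aldosterone. The groups overlapped and the highest value came from 1 aldosterone library with 112 reads, so that a log2 fold change of 0.56 had a 95% interval from -0.36 to 1.48 (limma adjusted p = 0.532). Cfb had 3 to 10 reads with vehicle and 3 to 18 with aldosterone. Its log2 fold change of 0.39 had a 95% interval from -0.64 to 1.42 (limma adjusted p = 0.706). With the sample number as a block the interval of Cfd ran from -0.01 to 1.14 and it was still not called (limma adjusted p = 0.206). A rise of 2-fold lies within the intervals of both genes.

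Factor D is also known as adipsin, a product of fat cells, and Cfd was set beside adipocyte markers. The summed level of the 9 listed adipocyte markers was 99.3 to 118 RPM with vehicle, 150.0 to 159 RPM with aldosterone and 92.5 to 96.5 RPM with spironolactone. Fabp4, a fatty acid carrier, was called higher with aldosterone than with vehicle (log2 fold change 2.45, limma adjusted p = 5.09e-11), as was Plin1, a coat protein of lipid droplets (log2 fold change 1.78, limma adjusted p = 6.19e-04). Adipoq, encoding adiponectin, was not called (log2 fold change 0.42, limma adjusted p = 0.665). It was at 1.19, 0.661, 1.83 and 2.07 RPM with vehicle and at 0.731, 1.17, 2.73 and 3.71 RPM with aldosterone, and its highest library was the one that was highest for Cfd. Lep had 3 reads or fewer in every library. In bulk RNA a change in the number of cells of a type cannot be told apart from a change in RNA per cell. The part of fat cells in the Cfd values was not tested.

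**Figure D2:**
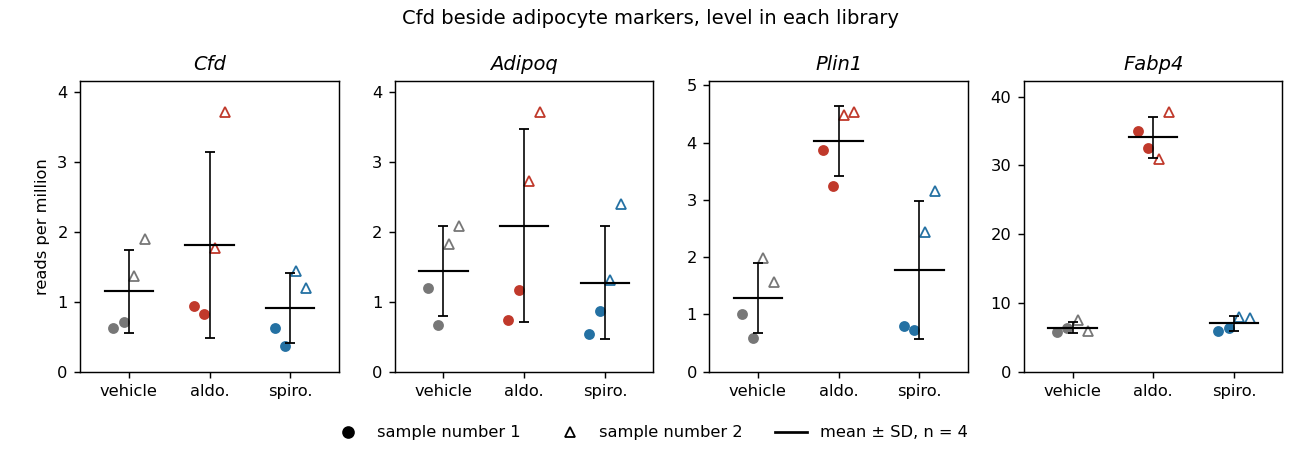
RPM (vertical axis, from 0) of Cfd, Adipoq, Plin1 and Fabp4 in each library, drawn by treatment and sample number, with the mean ± SD (n = 4). Fabp4 and Plin1 separate the aldosterone libraries from the vehicle ones, whereas Cfd and Adipoq overlap between treatments and are highest in the same aldosterone library.

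Against spironolactone, which asks the same of an agonist and an antagonist, the 4 calls had the same directions. There, 3 of 9 members were called higher, against 4.93% of 27631 genes, 1 lower, against 3.96%, and 2 higher with a log2 fold change of at least 1, against 1.38%. These comparisons share the aldosterone libraries, so they are not independent. The spironolactone libraries held 11.6, 11.5, 16.5 and 16.6 RPM of C3 and 25.2, 24.8, 24.7 and 28.3 RPM of C4b. For C3 the difference was 3.34-fold with a 95% interval from 2.62 to 4.25 (limma adjusted p = 1.15e-06), and for C4b it was 2.36-fold with an interval from 2.11 to 2.66 (limma adjusted p = 8.53e-09). Serping1, at 31.4, 35.5, 27.4 and 30.1 RPM with spironolactone, was 1.61-fold higher with aldosterone, with an interval from 1.44 to 1.80 (limma adjusted p = 7.82e-06). Cd55 was at 67.0, 70.3, 67.2 and 73.4 RPM with spironolactone, and the log2 fold change of aldosterone against it was -0.72 (SE 0.0690, limma adjusted p = 1.31e-06). No library of the aldosterone group overlapped the spironolactone group for these 4 genes, as held for 6.76% of all genes in the higher direction and 6.22% in the lower.

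With the sample number as a block, 3 further members were called higher with aldosterone than with spironolactone. C1ra had a log2 fold change of 0.28 (limma adjusted p = 0.143 without the block and 3.49e-05 with it). C1s1 stood at 0.21 (limma adjusted p = 0.383 and 0.00778). For Cfd the value was 0.93 (limma adjusted p = 0.286 and 0.0291). This brought the blocked calls to 6 higher, against 7.58% of all genes, and 1 lower, against 6.80%. Cfb was at 0.0885, 0.398, 0.315 and 0.213 RPM with spironolactone and was not called in either fit.

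Between spironolactone and vehicle no member was called by limma in either direction, as for 0% of the 27598 genes of that table, of which 1251 had an unadjusted p under 0.05. DESeq2 called 13 genes of the table and edgeR 0, and neither called a member. The lowest unadjusted p among the members was 0.0512, for Cd55. The 95% intervals of the fold ran from 0.774 to 1.13 for C3, from 0.813 to 1.00 for C4b, from 0.847 to 1.09 for Serping1 and from 0.855 to 1.00 for Cd55. Each of these 4 intervals leaves out changes of the size seen with aldosterone. For Cd55 every spironolactone library lay below every vehicle library (exact two-sided permutation p = 0.0286). The log2 fold change was -0.11 and was not called over all genes (limma adjusted p = 0.934). Among 45 complement genes with a row, members included, Cd55 alone had such a separation, 0 being higher and 1 lower. The share over all genes was not counted, so the separation is not read as a result. For Cfd and Cfb the intervals were wide, from 0.414 to 1.45 and from 0.434 to 1.96. In RPKM the ratio of C3 to Cd55 was 0.191 ± 0.0378 with spironolactone (SD, n = 4), beside 0.188 with vehicle.

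**Figure D3:**
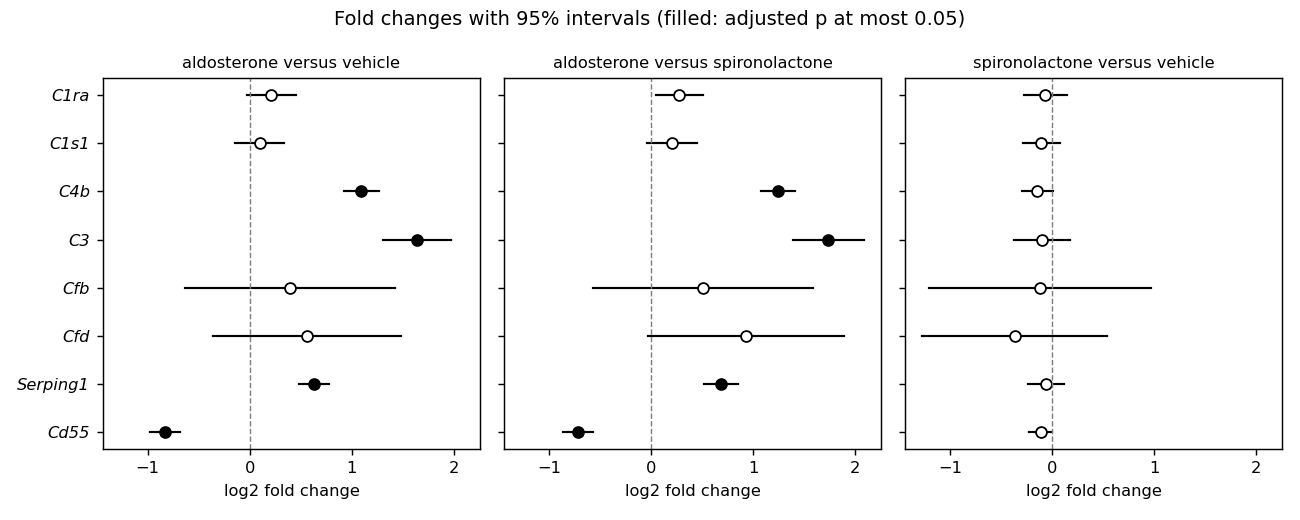
Log2 fold change (horizontal axis) of 8 complement genes in the 3 comparisons, with 95% intervals as lines and filled points for an adjusted p of at most 0.05. C3 (1.64), C4b (1.09), Serping1 (0.62) and Cd55 (-0.83) are filled in both aldosterone panels, and no point is filled between spironolactone and vehicle.

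The sample numbers separated several of the same genes. This comparison was chosen after seeing the values, and it used the spironolactone and vehicle libraries, where treatment called no member with or without the block. In that blocked fit 63 genes of the whole table were called higher with spironolactone and 34 lower. Sample number 2 had higher C1ra by 0.35 log2 units (limma adjusted p = 4.89e-07), C1s1 by 0.26 (limma adjusted p = 3.70e-04), C3 by 0.42 (limma adjusted p = 1.71e-04) and Cfd by 1.28 (limma adjusted p = 0.00636). Of the 9 members these 4 were higher, against 4.04% of all genes, and Serping1 alone was lower, by a log2 difference of -0.20 (limma adjusted p = 0.0380), against 4.13%. C4b differed by 0.11 (limma adjusted p = 0.392) and Cd55 by 0.00 (limma adjusted p = 0.990). The fit of the aldosterone and vehicle libraries, which shares the vehicle libraries, gave another split: C4b was called there (0.22, limma adjusted p = 0.00898) and Serping1 was not (-0.05, limma adjusted p = 0.733).

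The response to aldosterone could be read within each sample number. C3 averaged 13.0 RPM with vehicle and 34.3 RPM with aldosterone in sample number 1. In sample number 2 it averaged 16.8 and 58.5 RPM (n = 2 libraries for each mean). C4b went from 26.6 to 52.6 RPM in sample number 1 and from 30.3 to 65.9 RPM in sample number 2. Cd55 went from 74.5 to 38.1 RPM and from 75.4 to 44.1 RPM. Serping1 went from 33.7 to 46.4 RPM and from 30.8 to 50.2 RPM. For each of these genes the direction was shared between sample numbers. C1s1 went from 48.3 to 45.3 RPM in sample number 1 and from 57.7 to 66.5 RPM in sample number 2, in opposite directions. No member had an interaction of aldosterone with the sample number that was called, the lowest adjusted p being 0.895 by limma over all genes. The interaction of C3 was 0.38 log2 units (SE 0.128, limma adjusted p = 0.895, and 0.0109 before adjustment). That of C1s1 was 0.28 (SE 0.0918, limma adjusted p = 0.895, and 0.0101 before adjustment).

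Other complement genes were counted from a list of the pathway. Of 50 further genes counted for the pathway, 37 had a row in the table of aldosterone and vehicle, where 4 were called higher and 1 lower, beside 5.68% and 4.74% of all genes. Masp1, a protease of the lectin pathway, was at 67.2, 75.6, 59.0 and 64.8 RPM with vehicle and at 129.7, 129.7, 94.2 and 96.1 RPM with aldosterone (log2 fold change 0.78, limma adjusted p = 1.54e-04). Unlike C3, it was higher in sample number 1 than in sample number 2 (log2 difference of number 2 from 1 -0.27 in the spironolactone and vehicle libraries, limma adjusted p = 1.91e-04).

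Smaller rises were called for Cd59a, a surface inhibitor of the membrane attack complex, at a log2 fold change of 0.47 (limma adjusted p = 0.0115), and for Clu, encoding clusterin, at 0.36 (limma adjusted p = 0.0411), with overlapping libraries. Colec12, a scavenger receptor with a collectin domain, changed by 0.25 (limma adjusted p = 0.0164). Colec10, the 1 gene called lower, falls outside the rule for named genes and was named after its values were seen. It had 3 to 8 reads per vehicle library and 0 to 2 per aldosterone library (limma adjusted p = 0.0359). Masp1, Cd59a, Clu and Colec12 were also called higher with aldosterone than with spironolactone, at log2 fold changes of 0.68, 0.39, 0.50 and 0.27.

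By role, the counts include the members, and no difference between roles was tested. Shares of all genes called were 5.68% higher and 4.74% lower without the block, and 8.68% and 8.02% with it. Of 16 regulators with a row, 3 were called higher, Serping1, Cd59a and Clu, 1 was called lower, Cd55, and 12 were not called, with a median log2 fold change of 0.37. Of 12 initiation genes 2 were called higher and 1 lower, with a median of 0.23. Both C3 and C4b were called among 7 core and alternative pathway genes, with a median of 0.56. None of 3 terminal pathway genes and none of 8 receptors, C3ar1 among them, was called without the block. With the sample number as a block, 7 of the 37 genes that are not members were called higher and 2 lower. The genes added, named after their values were seen, were C2, which is cut by C1s (limma adjusted p = 0.0697 without the block and 0.0316 with it), and the regulators C4bp (limma adjusted p = 0.0537 and 0.0104) and Cr1l (limma adjusted p = 0.0767 and 0.00344), all higher. The receptor list gained Cd93, which was lower (limma adjusted p = 0.0605 and 0.0308). Against spironolactone 7 of 35 were called higher and 0 lower, beside 4.93% and 3.96% of all genes, and between spironolactone and vehicle 0 of the listed complement genes were called.

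**Figure D4:**
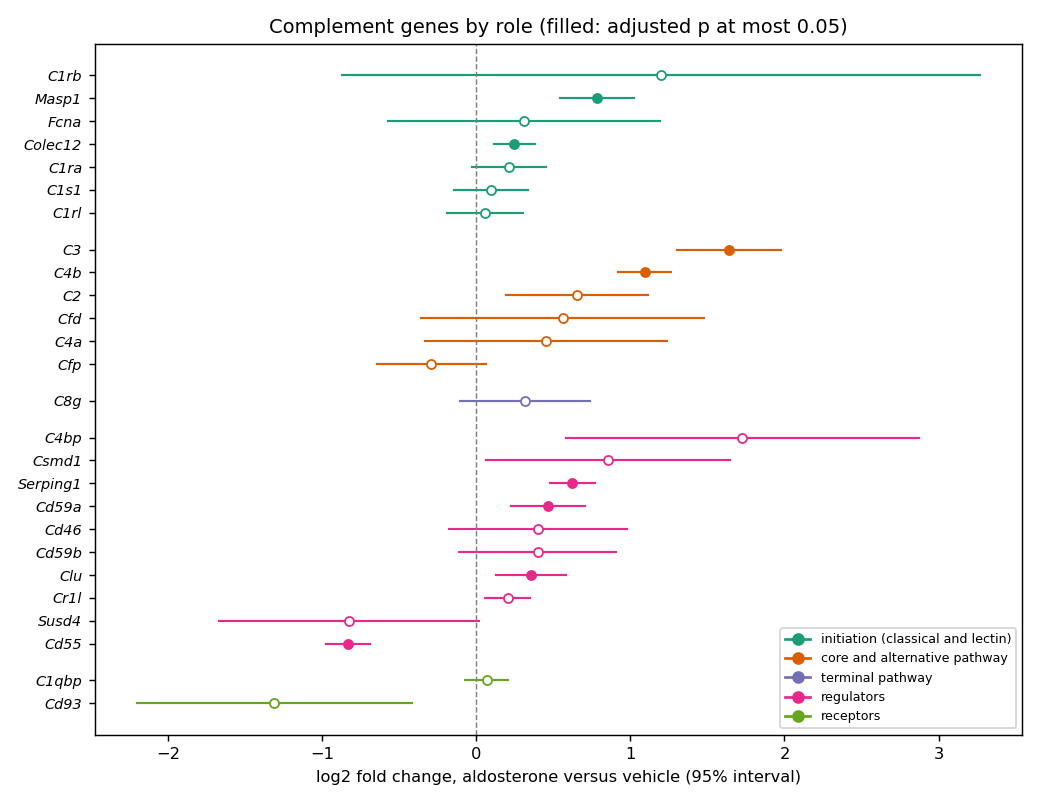
Log2 fold change of aldosterone against vehicle (horizontal axis, lines are 95% intervals) of 26 complement genes whose normalized counts averaged 10 or more, colored by role, filled where the adjusted p was at most 0.05. Filled points are C3 and C4b in the core, Serping1, Cd59a and Clu to the right and Cd55 to the left among the regulators, and Masp1 and Colec12 in initiation.

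Patterns like those of the most changed members were sought over 12 libraries among 15313 genes, by Pearson's r of log2 CPM. Nearest to C3 were Ism1 (r = 0.993), Itga10 (r = 0.990) and Gm14066 (r = 0.987). Nearest to Cd55 were Rspo2 (r = 0.992), Rnd3 (r = 0.987) and Lrrtm2 (r = 0.986). These values describe libraries that share the treatment and the sample numbers, and genes are not independent replicates.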

How the data were processed

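Poly(A) RNA of 12 fibroblast cultures was sequenced, and per the labels reads were aligned with HISAT2 (2.0.5) and counted per gene with featureCounts (1.5.0-p3). The submitters' notes name mm39 and the study's methods mm9; the positions in the tables differ from those of mm9 and were not checked against mm39. Whether strand was used in counting is not given in the sources used here. The authors deposited 3 tables, 1 for each pair of treatments, whose signal values are read counts divided by a size factor per library. The tables also hold group means, fold changes and p-values of the authors, which were not used. The deposited columns of gene length were used for RPKM.

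The step between values of a column gave the worth of 1 read, and reads were recovered from it. In all libraries 100% of values were whole within 0.001 read, 10 libraries were recovered from both of their tables with 0 genes differing, and totals ran from 19136923 to 30219185. The limit set on a count of 0 covers counting error only.

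Each table was fitted with limma (3.58.1, R 4.3.3) with trend on log2(normalized count + 1), treatment as the only term, with Benjamini-Hochberg adjustment over all genes. Intervals come from the spread between libraries. Fold changes are on that scale, which understates the change of low genes. Exact permutation tests over libraries were two-sided and took no account of the sample number. The sample number was added as a block in another fit. Same-numbered libraries of different treatments deviated together from their group means, with a mean correlation of 0.228 over 24 pairs (lowest 0.140) on 15313 genes, so the numbers from the titles pair the libraries. The tests were also run on simulated counts with set treatment changes. Those counts held no difference between sample numbers, so that run cannot judge the p-values for plates of a few animals.

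The members and lists were chosen with earlier results of these data known. Named are the 9 members, the 4 paralogs, Fkbp5, other complement genes called in aldosterone against vehicle whose normalized counts averaged 10 or more, and the 3 genes most like the members that rose and fell most. A gene of the pathway is not reported here and was left out of the lists. Alternatives were the block, plates averaged by sample number, DESeq2 (1.42.0) and edgeR (4.0.16) on recovered reads, TMM scaling, a pseudocount of 0.5, a filter at a mean of 10, and leaving out each library. Promoters were those of RefSeq, and windows shared by copies were searched in the mm9 annotation.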

Additional observations from a re-analysis of the deposited data

Results flagged for a closer look

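Among 45 groups of 4 libraries, from 17 genes, 2 held a library that stood apart from the rest by Dixon's criterion, which chance alone gives in about 1 in 20 groups. For C4b the highest spironolactone library, the second biological replicate of sample number 2, held 28.3 RPM. Its gap to the next library was 0.857 of the range of the group. For C1rb the first biological replicate of aldosterone sample number 2 held 14.8 RPM, with a gap of 0.964 of the range.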

How the results depend on the processing

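C3, C4b, Serping1 and Cd55 kept their direction and their call in 15 of 15 alternatives in both comparisons with aldosterone. Against vehicle the highest adjusted p was 0.0171 for C3, 0.00524 for C4b, 0.0167 for Serping1 and 0.00463 for Cd55, and the log2 fold change ran from 1.51 to 1.79 for C3, from 1.03 to 1.15 for C4b, from 0.58 to 0.68 for Serping1 and from -0.86 to -0.76 for Cd55. Against spironolactone the highest adjusted p was 0.0407 for C3. The number of members called against vehicle ran from 4 to 5. Against spironolactone it was 4, and 7 under the replicate block on the sample number, the added calls being C1ra, C1s1 and Cfd. The block changed no other call against spironolactone, and against vehicle it added C1ra. Between spironolactone and vehicle it was 0 throughout. No interaction of aldosterone with the sample number was called for a member in 9 of 9 alternatives, which does not show that the responses were equal. Small uncalled values changed sign when 1 library was left out. C1s1 ran from -0.0027 to 0.19 against vehicle, and between spironolactone and vehicle C1ra ran from -0.14 to 0.0064, Cfb from -0.36 to 0.23 and Serping1 from -0.13 to 0.0024. Over all genes the block moved the calls higher and lower from 1553 and 1294 to 2371 and 2192 against vehicle, from 1361 and 1093 to 2095 and 1879 against spironolactone, and from 0 to 63 and 34 between spironolactone and vehicle. Cfb and C3ar1 had too few reads for the edgeR filter or the filter at a mean of 10.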
